A study of Mus musculus with 3 samples.

Results

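The tetraspanins are a family of small membrane proteins, each crossing the membrane several times. Here they were followed in mouse cells, in the parental colon carcinoma line Colon26 and in LuM1 and NM11, which were derived from it. A gene was taken as a member where its RefSeq symbol was *Tspan* followed by a number, or was *Cd9*, *Cd37*, *Cd53*, *Cd63*, *Cd81*, *Cd82* or *Cd151*. By this rule 27 of the 22911 genes named on the array were members, measured by 39 probes. Of these, 19 genes had 1 probe and 8 had several. The rule reads gene names and no signal.

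Tetraspanins bind each other and a set of laterally associated partners, among them integrins, immunoglobulin-like proteins and membrane proteases, and gather them into patches of membrane often called the tetraspanin web. Through these partners they act on adhesion, motility, shedding of surface proteins and signalling. Several are sorted into the vesicles that cells release, and *Cd9*, *Cd63* and *Cd81* are widely used as markers of such vesicles.

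Total RNA of each line was hybridised to 1 single-colour Agilent array, so that 3 arrays were compared and no line had a replicate. LuM1 is labelled as a high-metastatic and NM11 as a low-metastatic line, and Colon26 is the line from which both derive. All 3 lines carry the labels BALB/c and female, were kept in RPMI1640 with 10% serum and antibiotics, and were harvested after 3 days, with no treatment that differed between them. The labels do not say whether a line is a clone. Each line was seen once, so differences between lines have no check by replicates and were not tested. A difference can only be set against the scanner software's error, which was 10.0% of a bright signal and does not include the spread between cultures. In bulk RNA, fewer cells with a transcript and less transcript per cell cannot be told apart.

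The labelled tissue was checked on epithelial marker genes. Of 12 such genes, *Cdh1*, *Krt18*, *Krt19*, *Vil1*, *Cdx1* and *Muc2* were not well above background on any array, and *Epcam* was well above background in LuM1 cells alone. *Krt8*, *Krt20*, *Cdx2*, *Cldn7* and *Lgals4* were well above background in all 3 lines. Among 8 fibroblast markers, 5 were well above background in Colon26 cells and 7 in each subline. Well above background were 49.9% of all probes in Colon26, 53.8% in LuM1 and 52.5% in NM11 cells.

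Before the values, the stretches of genome in front of 5 members are shown. They are the 250 bases before the start of *Cd81*, *Tspan17*, *Tspan5*, *Tspan11* and *Cd53*, chosen because these genes differed by more than 4-fold in at least 1 comparison or, for *Tspan17*, because it is the nearest relative of *Tspan5*. Each of them has a single start in the table used. The sequences are RefSeq's for the mouse assembly GRCm38.p6, read 5′ to 3′ on the strand of the gene. Capitals mark GC boxes (GGGCGG) and CCAAT boxes (CCAAT) on either strand, so that the reverse complement of CCAAT also stands in capitals. *Cd81* lies on the plus strand with its window at chr7:143052500-143052749, *Tspan17* on the plus strand at chr13:54789155-54789404, *Tspan5* on the plus strand at chr3:138741958-138742207, *Tspan11* on the plus strand at chr6:127887372-127887621, and *Cd53* on the minus strand at chr3:106790150-106790399.
Cd81: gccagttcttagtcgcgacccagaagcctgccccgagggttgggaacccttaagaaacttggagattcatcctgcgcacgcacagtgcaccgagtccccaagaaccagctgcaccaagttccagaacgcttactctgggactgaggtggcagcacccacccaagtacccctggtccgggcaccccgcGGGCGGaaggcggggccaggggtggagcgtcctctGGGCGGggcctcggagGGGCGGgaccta
Tspan17: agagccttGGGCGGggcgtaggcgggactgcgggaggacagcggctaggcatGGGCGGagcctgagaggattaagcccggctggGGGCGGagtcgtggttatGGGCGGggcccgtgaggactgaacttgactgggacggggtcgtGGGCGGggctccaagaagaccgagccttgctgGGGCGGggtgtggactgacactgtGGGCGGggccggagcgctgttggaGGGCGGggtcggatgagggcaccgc
Tspan5: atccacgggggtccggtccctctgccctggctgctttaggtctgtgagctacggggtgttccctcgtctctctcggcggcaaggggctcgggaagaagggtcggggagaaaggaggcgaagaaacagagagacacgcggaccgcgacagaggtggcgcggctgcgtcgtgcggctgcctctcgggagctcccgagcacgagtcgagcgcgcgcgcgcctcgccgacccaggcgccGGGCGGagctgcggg
Tspan11: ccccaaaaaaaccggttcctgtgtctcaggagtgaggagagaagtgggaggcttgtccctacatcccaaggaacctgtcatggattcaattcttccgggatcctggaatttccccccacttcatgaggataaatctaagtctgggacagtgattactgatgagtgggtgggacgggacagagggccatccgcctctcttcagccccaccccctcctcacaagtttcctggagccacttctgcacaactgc
Cd53: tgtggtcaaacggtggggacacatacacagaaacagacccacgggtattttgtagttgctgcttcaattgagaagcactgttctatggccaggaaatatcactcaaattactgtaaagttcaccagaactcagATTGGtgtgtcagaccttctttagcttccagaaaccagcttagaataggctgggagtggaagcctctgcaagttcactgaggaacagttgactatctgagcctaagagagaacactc

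The GC box was present 8 times before *Tspan17*, 3 times before *Cd81* and 1 time before *Tspan5*. The windows of *Tspan11* and *Cd53* held none, and that of *Cd53* held 1 CCAAT box. GC content was 70.8% for both *Tspan5* and *Tspan17*, 65.6% for *Cd81*, 54.0% for *Tspan11* and 45.2% for *Cd53*. Windows were found for 26 members, which had 36 starts in all; *Tspan18* had no entry. Across the member windows, 16 of 36 held a GC box (44.4%), against 32.7% of all 32851 windows in the table. A CCAAT box was present in 11 member windows (30.6%), against 33.8% of all windows. The letters TATAAA were present in 1 member window (2.78%), that of *Tspan12*, against 12.4% of all windows. The letters CACGTG (5.56% of member windows, 6.02% of all), TGANTCA (2.78% and 6.75%), ACGTG (16.7% and 16.6%, counting those inside CACGTG) and GAGGAAGT (5.56% and 2.44%) were searched in the same way on both strands. A match is a string of letters and not a measured binding site. The median GC content was 57.8% over the member windows and 52.4% over all windows.

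Of the 27 members, 15 were well above background on all 3 arrays, which was 55.6% of the family against 53.5% of all named genes. Another 3 were well above background in 1 line alone by the probe that stood for them, namely *Cd53* and *Tspan2* in LuM1 cells and *Tspan15* in Colon26 cells. The other 9 were not well above background in any line. They were *Tspan1*, *Tspan6*, *Tspan7*, *Tspan8*, *Tspan10*, *Tspan12*, *Tspan13*, *Tspan18* and *Tspan33*. Among them, *Tspan8* is known from gastrointestinal carcinomas, *Tspan7* from neurons, *Tspan12* from Norrin and Frizzled signalling in retinal vessels and *Tspan33* from blood cell precursors. For these 9 genes the arrays give no ratio.

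**Figure D1:**
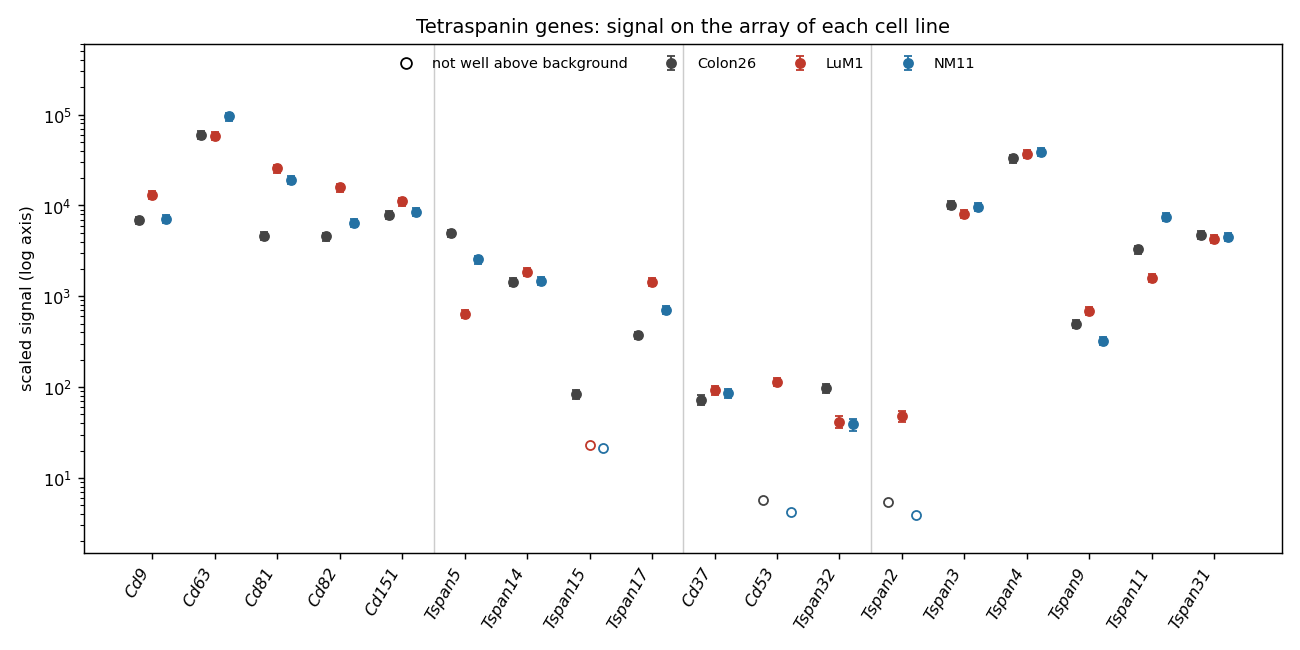
Scaled signal (log axis) of the 18 tetraspanin genes well above background in at least 1 line, with 1 point for each array. Bars are the scanner software's error, open points were not well above background, and vertical lines separate vesicle and motility members, the group that escorts Adam10, leukocyte members and the rest. Heights of different genes come from different probes and are not comparable, whereas within a gene the LuM1 point lies highest for *Cd81*, *Cd82*, *Cd9* and *Tspan17* and lowest for *Tspan5* and *Tspan11*.

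Signals are given as the spot's brightness after background subtraction, scaled so that the 75th percentile of each array equalled 576.6, and ± is the scanner software's error. The vesicle markers differed from each other in how they varied between the lines. *Cd81*, which associates with immunoglobulin-like proteins on many cells and with the B cell receptor complex on B cells, gave a scaled signal of 4664 ± 466 in Colon26 cells, 25563 ± 2556 in LuM1 cells and 18985 ± 1899 in NM11 cells. Both sublines thus lay well above the parental line and near each other. The ratio was 5.48-fold for LuM1 over Colon26 (log2 2.45), 4.07-fold for NM11 over Colon26 (log2 2.03) and 1.35-fold for LuM1 over NM11 (log2 0.43), each log2 value with an error of 0.20. The last of these lay above 2-fold when the arrays were scaled to *Hprt* (2.03-fold), and NM11 over Colon26 was then 2.94-fold. A second probe of *Cd81* gave 893, 5346 and 4019 in the same order of lines, which is 5.98-fold, 4.50-fold and 1.33-fold.

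Other genes shared this order of lines. The fibroblast markers *Dcn* and *Thy1* were also lower in Colon26 cells, where neither was well above background, than in LuM1 and NM11 cells. Their differences were far larger than that of *Cd81*, at least 1025-fold and 729-fold for LuM1 over Colon26. In the same comparison *Col1a1* was at 0.450-fold and *Pdgfrb* at 0.957-fold, and *Col1a2* was also lower in LuM1 cells. Of the 8 markers in that list, 4 reached 2-fold above Colon26 in NM11 cells and 0 were as far below it, where 8.01% and 7.94% of all genes were. In LuM1 cells 4 were above and 2 below Colon26 by that much, where 12.6% and 12.2% of all genes were. The summed scaled signal of the list was 66960 in Colon26, 55118 in LuM1 and 120808 in NM11 cells, and *Lum* was not well above background in any line. This sum adds signals of different probes, and most of it in Colon26 and NM11 cells was *Col1a2*, a collagen chain, at 60475 in Colon26, 49.3 in LuM1 and 84983 in NM11 cells. Their part in the *Cd81* result was not tested.

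*Cd9*, a marker of vesicles that also takes part in cell fusion and adhesion, had a scaled signal of 6864 ± 686 in Colon26, 13176 ± 1318 in LuM1 and 7080 ± 708 in NM11 cells. LuM1 cells were above both other lines, which lay within the scanner error of each other (1.03-fold for NM11 over Colon26, turning to 0.745-fold with scaling to *Hprt*). The LuM1 ratio was 1.92-fold over Colon26 and 1.86-fold over NM11, just under 2-fold. With the authors' processed values the former was 2.66-fold, and with scaling to *Hprt* the latter was 2.81-fold. *Cd63*, a tetraspanin of late endosomes and lysosomes, had a scaled signal of 60018 in Colon26, 58182 in LuM1 and 95675 in NM11 cells. Its probe was printed in 10 spots on each array, of which 8, 10 and 10 were kept, and their SD was 668, 1937 and 1752. This spread lies within an array and says nothing of the spread between cultures. NM11 was at 1.59-fold over Colon26 (log2 0.67), and with scaling to *Hprt* that difference came to log2 0.20, at the scanner error. LuM1 over Colon26 was 0.97-fold (log2 -0.045), a direction that turned to log2 0.43 with the authors' processed values, and LuM1 over NM11 was 0.61-fold, or log2 -0.12 with scaling to *Hprt*.

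The 2 members best known for cell motility were both highest in LuM1 cells. *Cd82*, also called Kai1 and known as a suppressor of metastasis, gave a scaled signal of 4573 ± 457 in Colon26, 15784 ± 1578 in LuM1 and 6380 ± 638 in NM11 cells. The high-metastatic line was 3.45-fold above Colon26 (log2 1.79) and 2.47-fold above NM11 (log2 1.31), while NM11 was 1.40-fold above Colon26. With scaling to *Hprt* the ratio of NM11 over Colon26 was 1.01-fold. All 4 probes of *Cd82* lay between 3.41-fold and 3.58-fold for LuM1 over Colon26 and between 2.32-fold and 2.67-fold for LuM1 over NM11. *Cd151*, which binds laminin-binding integrins, gave 7924 ± 792 in Colon26, 11087 ± 1109 in LuM1 and 8480 ± 848 in NM11 cells. LuM1 was 1.40-fold above Colon26 and 1.31-fold above NM11, both larger than the scanner error and under 2-fold. The 1.07-fold ratio of NM11 over Colon26 was within that error, and turned below 1 (0.773-fold) when the arrays were scaled to *Hprt*.

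**Figure D2:**
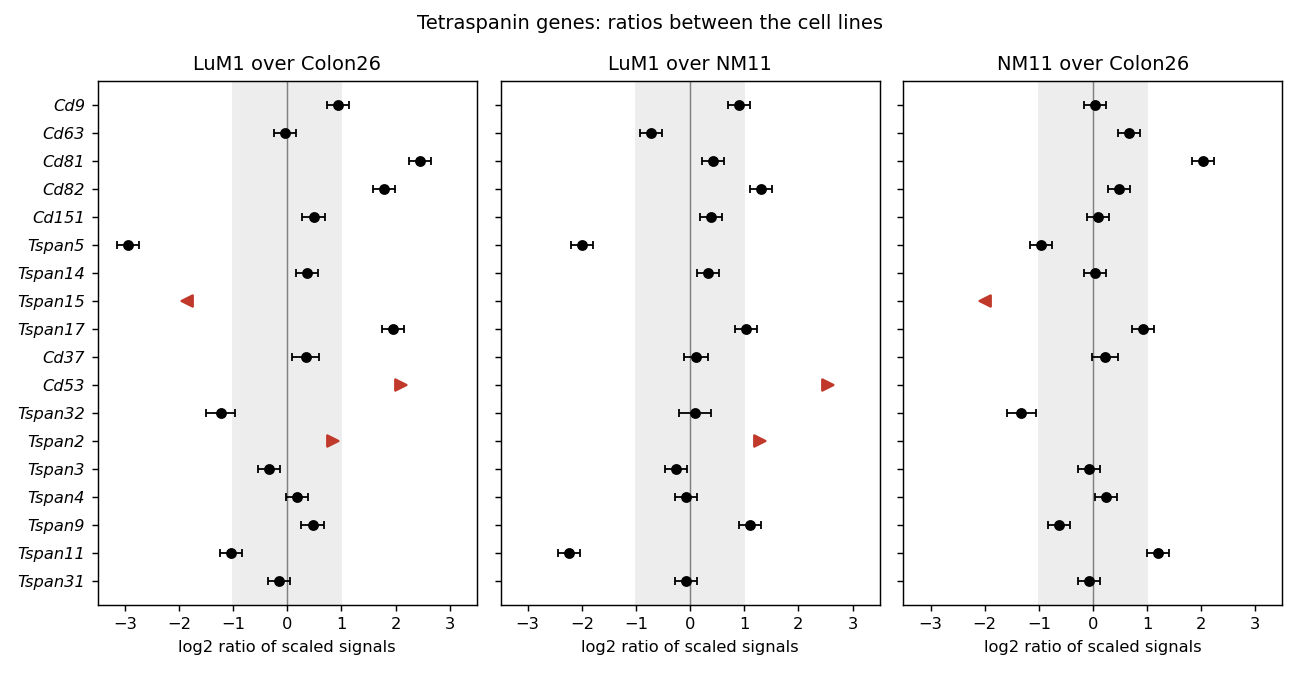
Log2 ratios of scaled signals between the lines for the same 18 genes. Dots are ratios measured on both arrays with the scanner software's error, triangles are bounds that point towards larger differences, and the grey band is under 2-fold. *Cd81* lies to the right of the band for both sublines over Colon26, whereas *Tspan5* lies far to the left for LuM1 over Colon26 and over NM11.

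A subgroup of 6 members, *Tspan5*, *Tspan10*, *Tspan14*, *Tspan15*, *Tspan17* and *Tspan33*, is known to carry the membrane protease Adam10 out of the endoplasmic reticulum and to direct it to different substrates. Here the subgroup did not vary as 1 unit. *Tspan5* gave a scaled signal of 4946 ± 495 in Colon26, 640 ± 64.1 in LuM1 and 2547 ± 255 in NM11 cells. It was lowest in LuM1 cells, 7.73-fold below Colon26 (log2 -2.95) and 3.98-fold below NM11 (log2 -1.99), and NM11 was 1.94-fold below Colon26. Over all scalings the LuM1 over Colon26 value stayed between -2.95 and -2.48 (log2). That of LuM1 over NM11 lay between -2.03 and -1.40. For NM11 over Colon26 it lay between -1.43 and -0.905, on either side of 2-fold. Only 0.831% of the 12397 genes measured on both arrays had a lower ratio of LuM1 over Colon26.

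*Tspan17*, the closest relative of *Tspan5* and like it measured by 1 probe, had the opposite order of lines. Its scaled signal was 372 ± 37.6 in Colon26, 1444 ± 145 in LuM1 and 708 ± 70.9 in NM11 cells. LuM1 was 3.88-fold above Colon26 (log2 1.96) and 2.04-fold above NM11, and NM11 was 1.90-fold above Colon26. The ratio of LuM1 over NM11 lay at the 2-fold line and was 1.98-fold when the 75th percentile was taken over probes rather than spots. *Tspan14* was within 2-fold in every comparison, with ratios from 1.03-fold to 1.29-fold. *Tspan10* and *Tspan33* were not well above background.

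The 2 probes of *Tspan15* disagreed. The brighter probe (A_55_P2832341) gave 83.7 ± 10.3 in Colon26 cells and was not well above background in LuM1 (23.3) or NM11 (21.2) cells. Colon26 was thus at least 3.60-fold higher than LuM1 and at least 3.96-fold higher than NM11. In such a bound the bright signal is divided by the dim signal or, if that is lower, by a floor, namely the dimmest signal still flagged well above background on the same array (26.7 in Colon26, 20.0 in LuM1 and 19.5 in NM11). The other probe (A_55_P2814712) was well above background in LuM1 cells alone, at 37.8 ± 5.54 against 9.52 in Colon26 and 15.4 in NM11 cells. By that probe LuM1 was at least 1.42-fold higher than Colon26 and at least 1.94-fold higher than NM11, so the direction for LuM1 and Colon26 depends on the probe. Around the brighter probe's spot on the Colon26 array, 11.3% of the neighbouring spots were also well above background on that array alone, against 1.89% over the whole array. No direction is therefore given for *Tspan15* as a gene, and in the counts over the family its brighter probe stands for it.

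*Adam10* itself gave 1468 ± 147 in Colon26, 2320 ± 232 in LuM1 and 2238 ± 224 in NM11 cells, 1.58-fold and 1.52-fold above Colon26. With the authors' processed values LuM1 was above Colon26 by at least 2-fold.

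Members of leukocytes were dim on these arrays. *Cd53*, a tetraspanin of the leukocyte surface, gave 114 ± 12.3 in LuM1 cells and was not well above background in Colon26 (5.75) or NM11 (4.19) cells. LuM1 was at least 4.29-fold higher than Colon26 and at least 5.86-fold higher than NM11. These bounds fell to log2 1.19 and 1.26 with normexp. Of the spots near it on the LuM1 array, 4.46% were well above background on that array alone, against 3.49% over the array. Among 12 leukocyte markers, 6 were well above background in Colon26, 6 in LuM1 and 5 in NM11 cells, with summed scaled signals of 6646, 13856 and 5844. *Ptprc*, which marks all leukocytes, and *Adgre1*, *Tyrobp*, *Laptm5* and *Spi1* were not well above background in any line. Of 7 markers compared between LuM1 and Colon26 cells, 2 were at least 2-fold higher in LuM1 and 0 lower, or 28.6% beside 12.6% of all genes. *Cd68*, a lysosomal protein of macrophages, was 30.0-fold above Colon26 in LuM1 cells, and *Coro1a*, an actin-binding protein of leukocytes, 18.1-fold. In the same comparison *Cd3e* of T cells was at 0.798-fold, *Csf1r* of macrophages at 0.996-fold and *Itgam* of myeloid cells at 1.34-fold, and *Cd79a* of B cells rose above background only on the Colon26 array. Their part in the *Cd53* result was not tested. *Cd37*, which is mainly found on B cells, gave 72.9, 92.1 and 85.4 in Colon26, LuM1 and NM11 cells and stayed within 2-fold, and its second probe was not well above background.

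*Tspan32*, a member of blood cells, was measured by 4 probes of several transcripts, and these did not run alike. Its brightest probe (A_55_P2010386) gave 97.4 ± 11.4 in Colon26, 41.6 ± 6.10 in LuM1 and 39.0 ± 5.73 in NM11 cells. Colon26 was 2.34-fold above LuM1 and 2.50-fold above NM11, and LuM1 over NM11 was 1.07-fold, a difference within the scanner error that turned to 0.884-fold with quantile normalization. With normexp background correction the Colon26 differences were under 2-fold, at log2 -0.62 for LuM1 and -0.60 for NM11, and with the authors' processed values that of LuM1 was -0.76. A probe of another transcript (A_55_P2245852) gave 307 in Colon26 cells alone, at least 15.3-fold above LuM1 and 15.7-fold above NM11. A further one (A_66_P139711) gave 49.0 in NM11 cells alone, and the last (A_51_P221248) was not well above background on any array. The single-array spots of these probes had 12.9% and 14.9% of their neighbours well above background on that array alone. The shares were 1.89% over the Colon26 array and 2.14% over the NM11 array.

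**Figure D3:**
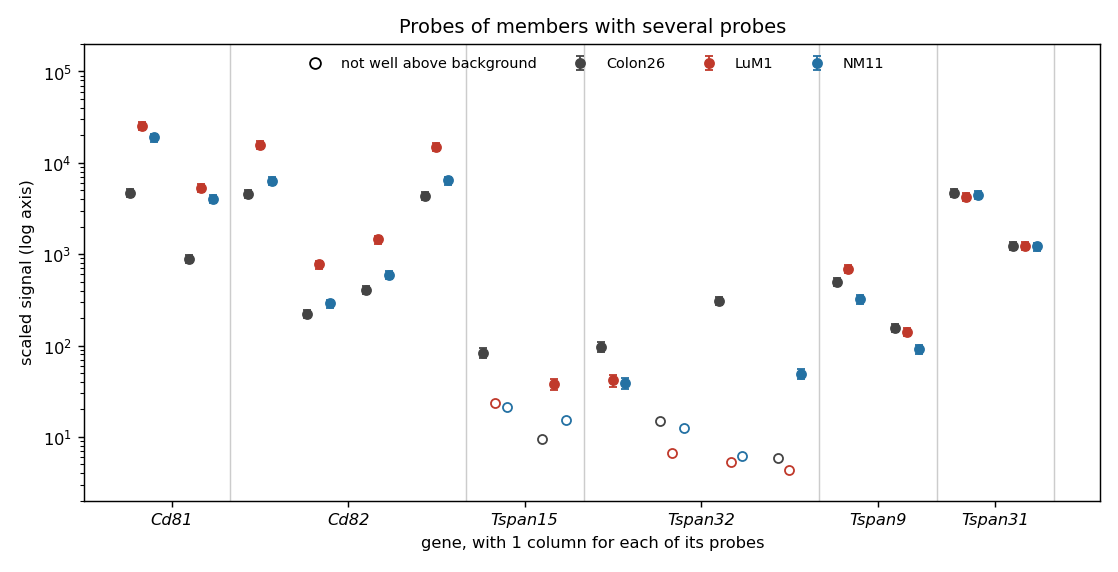
Scaled signal (log axis) of every probe of the 6 detected members with several probes, *Cd37* left out, with 1 column for each probe, 1 colour for each line and the scanner software's error as bars. The probes of *Cd81* and *Cd82* show the same order of lines, whereas those of *Tspan15* and *Tspan32* are well above background (filled points) in different lines.

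The other detected members were *Tspan2*, *Tspan3*, *Tspan4*, *Tspan9*, *Tspan11* and *Tspan31*. *Tspan11* was the only member whose sublines lay on opposite sides of Colon26 by at least 2-fold. It gave a scaled signal of 3284 ± 329 in Colon26, 1599 ± 160 in LuM1 and 7521 ± 752 in NM11 cells. LuM1 was 2.05-fold below Colon26 (log2 -1.04) and NM11 was 2.29-fold above it (log2 1.20), so that the sublines differed by 4.70-fold (log2 -2.23 for LuM1 over NM11). For LuM1 the value against Colon26 fell under 2-fold in 6 alternatives, namely no scaling (log2 -0.91), scaling to the median (-0.99) or to *Hprt* (-0.91), quantile normalization (-0.89), normexp (-0.965) and the authors' processed values (-0.57). For NM11 it fell under 2-fold with scaling to *Hprt* (log2 0.73) or to spike-in controls (0.89). Neither direction turned. Of the genes measured on both sublines, 1.32% had a lower ratio of LuM1 over NM11.

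*Tspan9*, a member known from platelets, gave 497 ± 50.1 in Colon26, 688 ± 68.9 in LuM1 and 321 ± 32.4 in NM11 cells. LuM1 was 2.14-fold above NM11 (1.98-fold with normexp and log2 0.87 with its probes averaged) and 1.38-fold above Colon26. Its second probe gave 158, 142 and 90.8, or 1.57-fold over NM11 and 0.903-fold over Colon26, so the latter direction differed between the probes. *Tspan2*, known from oligodendrocytes, gave 47.8 ± 6.32 in LuM1 cells and was not well above background in Colon26 (5.51) or NM11 (3.95) cells, so that LuM1 was higher by at least 1.79-fold and 2.45-fold. With normexp both bounds were under 2-fold, at log2 0.54 and 0.60. Its surroundings on the LuM1 array held 0.893% of spots well above background there alone, under the 3.49% of the array.

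*Tspan3*, *Tspan4*, which is known from the migrasomes left behind by moving cells, and *Tspan31* stayed within 2-fold in every comparison. Their ratios lay between 0.794-fold and 1.19-fold, with *Tspan3* at 0.794-fold and *Tspan4* at 1.13-fold for LuM1 over Colon26. The 2 probes of *Tspan31* gave 0.900-fold and 0.995-fold in that comparison. The direction of *Tspan3* and *Tspan31* for LuM1 over Colon26 turned with the authors' processed values, to log2 0.14 and 0.32.

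Counted over the family, LuM1 and Colon26 cells could be compared for 18 members. In LuM1 cells 4 were higher by 2-fold or more (*Cd53*, *Cd81*, *Cd82* and *Tspan17*), or 22.2%, against 12.6% of the 14353 genes compared on these arrays. Lower by as much were also 4 (*Tspan5*, *Tspan11*, *Tspan15* and *Tspan32*), against 12.2% of genes. Of these, *Tspan15* is counted by its brighter probe, whose direction the other probe does not share, and the probes of *Tspan32* did not run alike. With normexp only 1 member, *Tspan5*, was lower by 2-fold. The median log2 ratio of the 15 members measured on both arrays was 0.34, beside -0.15 over all measured genes. Of these 15, 12 differed by more than the scanner error of their ratio, as did 9328 of the 12397 genes measured on both arrays.

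LuM1 and NM11 cells could be compared for 17 members, and 5 reached 2-fold in favour of LuM1 (*Cd53*, *Cd82*, *Tspan2*, *Tspan9* and *Tspan17*), or 29.4%, against 11.0% of genes. In the other direction, 2 were lower (*Tspan5* and *Tspan11*), against 8.6% of genes. The median log2 ratio was 0.11, beside -0.11 over all measured genes. For NM11 over Colon26, 16 members could be compared. There, 2 were at least 2-fold higher (*Cd81* and *Tspan11*) against 8.01% of genes and 2 were lower (*Tspan15*, again by its brighter probe, and *Tspan32*) against 7.94%, with a median of 0.10 beside -0.04. With normexp 0 members were lower in that comparison, and with clustered single-array spots left out 1 was, *Tspan32*. *Tspan5* was also lower by 2-fold there with no scaling and with scaling to *Hprt* or to spike-in controls. The median for NM11 over Colon26 turned to -0.37 with scaling to *Hprt* and to -0.21 with scaling to spike-in controls. The comparisons of the sublines with Colon26 share the Colon26 array and are not independent.

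By line, LuM1 exceeded both other lines by 2-fold or more for *Cd53*, *Cd82* and *Tspan17* (3 of 18 members, against 7.19% of 14828 genes). In LuM1 cells *Tspan5* and *Tspan11* were lower by as much (against 4.13%). *Tspan11* dropped out with no scaling, scaling to the median or to *Hprt*, quantile normalization, normexp and the authors' processed values. *Cd9* joined the higher members in settings that included no scaling, scaling to *Hprt* and quantile normalization, and *Cd81* did with *Hprt*. Colon26 stood apart with *Cd81* lower (against 4.44%). Higher in Colon26 were *Tspan15* and *Tspan32* (against 4.63%), the former by its brighter probe alone. *Tspan5* joined them with no scaling and with scaling to *Hprt* or to spike-in controls. With normexp 0 members were higher in Colon26 than in both others, and with clustered single-array spots left out 1 was. NM11 was higher than both others for *Tspan11* (against 2.56%) and lower for 0 members (against 2.12%). With scaling to *Hprt* or to spike-in controls *Tspan11* was no longer counted, and with *Hprt* *Tspan9* was lower in NM11 than in both others. With so few members and 1 array per line, these shares describe the arrays and no more.

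**Figure D4:**
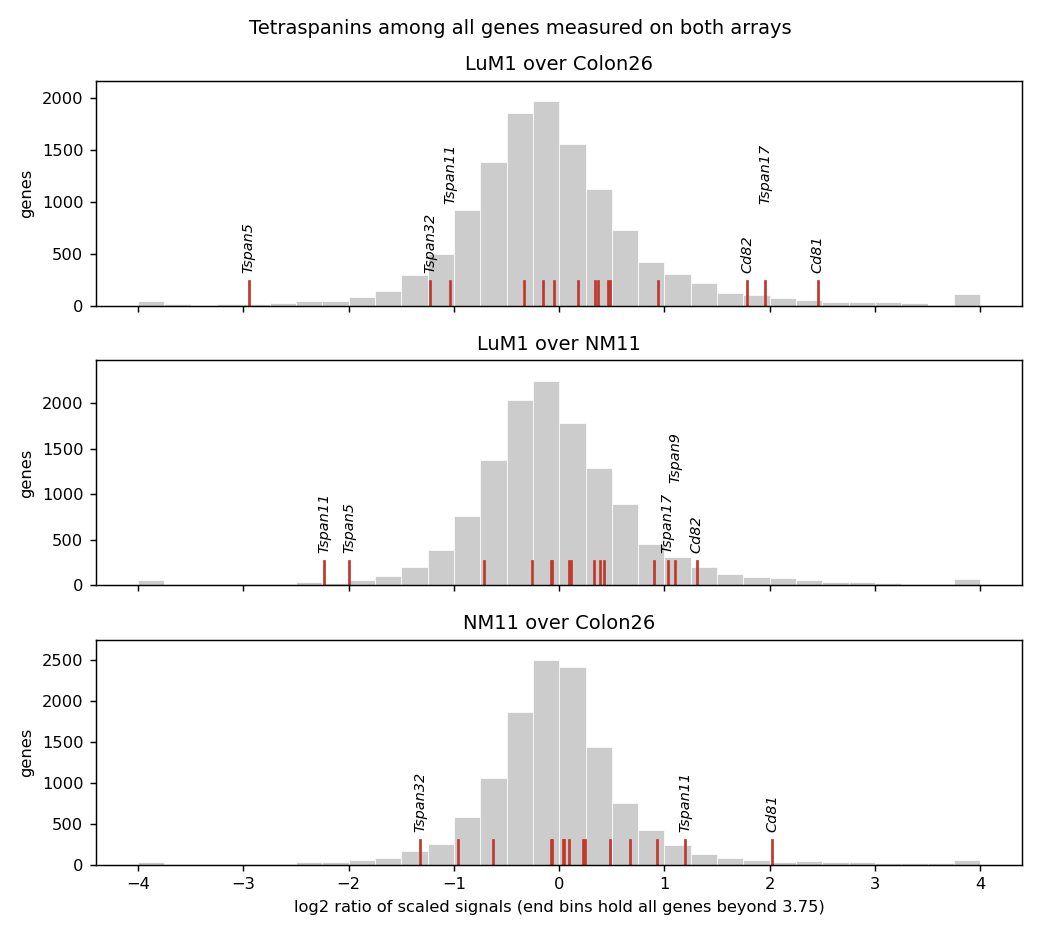
Histograms of the log2 ratios of all genes measured on both arrays of a comparison (grey, number of genes for each bin of 0.25), with a red line for each measured tetraspanin gene and names for those at least 2-fold apart. *Tspan5* lies in the left tail for LuM1 over Colon26, and *Cd81* lies in the right tail for both sublines over Colon26.

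The scaling between arrays set how many genes of either sign were counted. Against the main scaling, the median log2 ratio of all measured genes moved by 0.47 for LuM1 over Colon26 and 0.42 for LuM1 over NM11 with the authors' processed values, by 0.59 for LuM1 over NM11 and -0.47 for NM11 over Colon26 with *Hprt*, and by 0.33 and -0.31 for these with spike-in controls. *Hprt* also moved LuM1 over Colon26 by 0.12, and leaving out any scaling moved it by 0.13 and LuM1 over NM11 by 0.19. Among genes at least 2-fold apart, 50.9% were higher for LuM1 over Colon26 and 77.7% with the authors' processed values. For LuM1 over NM11 the share was 56.2%, and 68.6% with no scaling, 87.8% with *Hprt*, 77.2% with spike-in controls and 81.4% with the authors' processed values. For NM11 over Colon26 it was 50.2%, and 20.1% with *Hprt* and 29.0% with spike-in controls. A scaling by 1 factor moves all genes of an array alike, members included. For LuM1 over Colon26, *Cd81*, *Cd82* and *Tspan17* stayed above 2-fold and *Tspan5* stayed below 0.5-fold under each scaling and background correction tried.

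**Figure D5:**
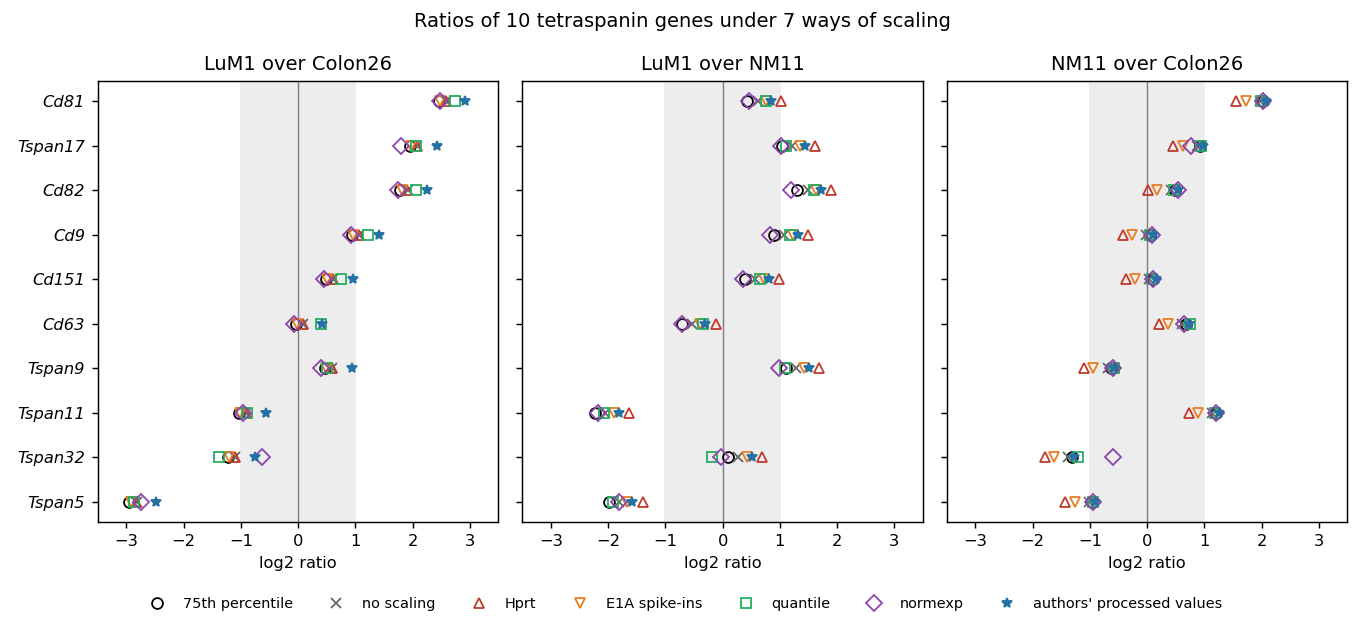
Log2 ratios of 10 tetraspanin genes in the 3 comparisons under 7 ways of scaling or correcting the arrays, with 1 symbol for each and the grey band under 2-fold. For LuM1 over Colon26, *Cd81*, *Tspan17* and *Cd82* stay to the right of the band and *Tspan5* to the left, whereas *Cd9*, *Tspan11* and *Tspan32* cross its edges and *Cd63* crosses 0.

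Several members are neighbours in the genome, with no protein-coding gene between them in the RefSeq table. *Tspan32* and *Cd81* are such a pair on chromosome 7. In Colon26 cells *Cd81* was lower than in both sublines, and *Tspan32* was higher by its brightest probe, although its probes did not run alike and the difference was under 2-fold with normexp. *Tspan11* and *Tspan9*, on chromosome 6, also ran in opposite directions between the sublines, with *Tspan11* at 0.213-fold and *Tspan9* at 2.14-fold for LuM1 over NM11. *Tspan18*, next to *Cd82* on chromosome 2, was not well above background in any line. *Cd151* and *Tspan4*, with 1 gene between them on chromosome 7, both stayed within 2-fold.

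Genes of the tetraspanin web outside the family were followed by a list of 40 partners. For LuM1 over Colon26 cells, 7 of 36 compared were higher and 5 lower by 2-fold or more, which is 19.4% and 13.9% beside the 12.6% and 12.2% of all genes. For LuM1 over NM11 it was 6 and 5 of 34, or 17.6% and 14.7% beside 11.0% and 8.6%. For NM11 over Colon26 it was 4 and 3 of 31, or 12.9% and 9.68% beside 8.01% and 7.94%. The integrins that bind Cd151 differed from each other. *Itga6*, the α subunit of laminin receptors, gave 5752 in Colon26, 19723 in LuM1 and 7418 in NM11 cells, which put LuM1 3.43-fold above Colon26 and 2.66-fold above NM11. *Itgb4*, the β subunit that pairs with it in hemidesmosomes, gave 351, 7702 and 1966, which is 21.9-fold for LuM1 over Colon26, 3.92-fold for LuM1 over NM11 and 5.60-fold for NM11 over Colon26. *Itga3*, another laminin-binding subunit, gave 2278, 1221 and 822. It was thus highest in Colon26, 1.87-fold above LuM1 and 2.77-fold above NM11.

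The immunoglobulin-like partners of Cd9 and Cd81 also differed from each other. *Igsf8* gave 4141, 4499 and 4212 in Colon26, LuM1 and NM11 cells and varied by less than the scanner error. *Ptgfrn* gave 2724, 1360 and 908, so that it was 0.499-fold for LuM1 and 0.333-fold for NM11 over Colon26. In the authors' processed values all LuM1 over Colon26 ratios lie higher by the shift given above. *Sdcbp*, the syntenin adaptor of vesicle formation, gave 935, 1235 and 1452 and stayed within 2-fold. *Epcam*, an epithelial partner, gave 27.8 in LuM1 cells and was not well above background in the other lines, which bounds the LuM1 ratio at 1.04-fold or more over Colon26 and 1.43-fold or more over NM11.

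Growth factor and adhesion partners included several differences of at least 4-fold. *Egfr*, the receptor of epidermal growth factor, gave 570 in LuM1 and 69.0 in NM11 cells and was not well above background in Colon26 cells (7.53), so that LuM1 was at least 21.4-fold above Colon26 and 8.26-fold above NM11. Its ligand *Tgfa* was well above background in LuM1 cells alone (198), at least 7.42-fold above Colon26 and 10.1-fold above NM11. *Upk2*, a uroplakin that pairs with tetraspanins in the bladder, was also well above background in LuM1 cells alone (143), at least 5.38-fold and 7.35-fold higher. *Vcam1*, an adhesion receptor for leukocytes, gave 1705, 7836 and 11820, or 4.60-fold for LuM1 and 6.93-fold for NM11 over Colon26. *Ifitm1*, an interferon-induced membrane protein, gave 253 in Colon26, 39.7 in LuM1 and 15677 in NM11 cells, 62.0-fold higher in NM11 than in Colon26. *Ndp*, the ligand Norrin, was above background in Colon26 cells alone (182), at least 9.09-fold above LuM1 and 9.32-fold above NM11.

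Of the tetraspanins with other names, the photoreceptor gene *Rom1* gave 299 in Colon26, 608 in LuM1 and 151 in NM11 cells. LuM1 was 2.03-fold above Colon26 and 4.03-fold above NM11. The urothelial gene *Upk1a* gave 275, 167 and 186 and stayed within 2-fold. *Upk1b* and *Prph2*, the latter also of photoreceptors, were not well above background in any line.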

How the data were processed

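Gene expression was measured in Colon26, LuM1 and NM11 cells with 1 single-colour Agilent array per line. Per the file headers, all 3 arrays share 1 slide and 1 scan. As the authors describe, 0.1 µg of total RNA was labelled. The authors deposited the intensity of each spot from Agilent Feature Extraction 11.5.1.1, background-subtracted and not scaled between arrays, with its error and with flags (other values of 0 or 1) for outliers, saturation and background. Their processed intensity for the series equals the scanner intensity times 1 factor per array (0.654, 0.829 and 0.706 for Colon26, LuM1 and NM11). Its normalization is not given in the sources used here.

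Control and outlier spots (137, 74 and 99 outliers) were left out, repeated spots were averaged, and signals were scaled between arrays by the 75th percentile over spots (567, 620 and 545 before scaling). RefSeq accessions of GRCm38.p6 gave a gene name to 32994 of 56605 probes (58.3%). The array was designed on an older assembly, so gene coordinates other than those of RefSeq promoters are not given. The brightest probe stood for a gene, and every probe is given where probes disagreed by over 2-fold. Probes not well above background entered as bounds. Values were given for members at least 2-fold apart in any comparison and for *Cd9*, *Cd63*, *Cd81*, *Cd82* and *Cd151*. They were also given for partners at least 4-fold apart and for *Adam10*, *Igsf8*, *Ptgfrn*, *Itga3*, *Itga6*, *Sdcbp* and *Epcam*. Python 3.11.15, pandas 2.3.3 and limma 3.58.1 (normexp with an offset of 50) were used. The calling of differences was tested on simulated data with large changes planted in bright probes. That simulation does not show how often changes near 2-fold, or in dim probes, are called rightly. With 1 array per line the number of arrays limits the precision, and no p-value was computed.

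The members, gene lists and alternatives were chosen with earlier results of these data known. Alternatives were other scalings, background corrections, filters, probe choices and a 4-fold threshold. The 75th percentile over probes and the exclusion of clustered spots well above background on 1 array alone were added after seeing the data. Spots counted as clustered where such spots made up over 3 times their array-wide share within 5 rows and columns. *Cd37*, *Tspan3*, *Tspan4*, *Tspan14* and *Tspan31* were also named, outside the rule, and the marker genes given beside *Cd81* and *Cd53* were picked after their values were seen.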

Additional observations from a re-analysis of the deposited data

Results flagged for a closer look

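*Tspan11* was the only member whose sublines lay on opposite sides of the parental line by at least 2-fold. Its scaled signal was lower in LuM1 and higher in NM11 than in Colon26 cells, and the log2 ratio over Colon26 was lower by 2.23 in LuM1 than in NM11 (-2.23). Each line was measured on 1 array, and this difference was not tested. It is measured by 1 probe. For LuM1 over Colon26 the difference was under 2-fold in 6 alternatives (no scaling, scaling to the median or to *Hprt*, quantile normalization, normexp and the authors' processed values, log2 -0.99 to -0.57), and for NM11 over Colon26 with scaling to *Hprt* (0.73) or to spike-in controls (0.89), with the direction kept.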

How the results depend on the processing

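No paired analysis was possible because each line has 1 array and the labels carry no replicate numbers. For the counts and medians of the family and its partners, 226 alternative values moved by less than the limit set for them and 65 moved further. The limit for counts was wide, since a change from 2 to 3 genes or from 6 to 9 lay within it, whichever genes were counted. For medians the limit was the median scanner error of the members' ratios. Of the log2 ratios of single members, 519 moved by less than the scanner error, 140 moved further and 2 reversed. The last are values of *Tspan15*, at least 2-fold apart, whose sign changed. Another 38 values, of ratios under 2-fold, also changed sign and are among the other counts. They belong to 9 members (*Cd9*, *Cd37*, *Cd63*, *Cd151*, *Tspan3*, *Tspan4*, *Tspan14*, *Tspan31* and *Tspan32*). A changed filter leaves a ratio measured on both arrays as it was, and another choice of probe cannot change a member with 1 probe. Part of the 519 was thus fixed in advance and is no measure of stability. The values that moved are given below, counts being of genes at least 2-fold apart. Such counts moved over all named genes too. For LuM1 over NM11, 1592 were higher and 1239 lower in the main setting, and 3581 and 498 with scaling to *Hprt*. For NM11 over Colon26 these were 1130 and 1120, and 686 and 2727 with *Hprt*. For LuM1 over Colon26 they were 1812 and 1751, with normexp 1312 and 1317, and with the authors' processed values 3038 and 874. The cause was not tested except where stated.

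With no scaling, 2 partners were lower in LuM1 than in Colon26, and 1 member was lower in LuM1 than in both other lines. With arrays scaled to the median of probes well above background on all arrays these numbers were 3 and 1. Scaled to *Hprt*, 2 partners were lower for LuM1 over Colon26, and 14 were higher and 3 lower for LuM1 over NM11, where the family median was 0.70. In that scaling 1 member was higher, 4 members and 5 partners were lower for NM11 over Colon26, and the median was -0.37. It gave 5 members higher and 1 lower in LuM1 than in both others, and 0 higher and 1 lower in NM11. Spike-in scaling gave 3 partners lower for LuM1 over Colon26 and a median of 0.44 for LuM1 over NM11. For NM11 over Colon26 it gave 1 member higher, 5 partners lower and a median of -0.21, and 0 members were higher in NM11 than in both others. Quantile normalization left 1 member lower in LuM1 than in both others.

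Normexp left 1 member lower for LuM1 over Colon26, 3 higher for LuM1 over NM11 and 0 lower for NM11 over Colon26, with 0 higher in Colon26 and 1 lower in LuM1 than in both others. The authors' processed values gave 2 members and 2 partners lower and 11 partners higher for LuM1 over Colon26, with a median of 0.81. They gave 11 partners higher and a median of 0.53 for LuM1 over NM11. Against both others, 1 member was higher in Colon26, 5 were higher and 1 lower in LuM1. With signals significantly above background, and also with no filter, 4 members were lower for LuM1 over NM11, 4 members were higher and 5 partners lower for NM11 over Colon26, and 3 members were higher in NM11 than in both others. Without a filter the median for LuM1 over Colon26 was -0.045, since genes near background enter it.

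Averaging probes left 1 member higher in Colon26 than in both others. The probe brightest in LuM1, and also the exclusion of clustered single-array spots, left 1 member lower for NM11 over Colon26 and 1 higher in Colon26 than in both others, and turned *Tspan15* for LuM1 over Colon26 to 0.50 (log2), since another probe then stood for it. At a 4-fold threshold 2 members were higher and 1 lower for LuM1 over Colon26, 1 higher and 1 lower for LuM1 over NM11, and 1 higher and 0 lower for NM11 over Colon26. In that count 1 member was higher and 0 lower in LuM1 than in both others, and 0 were higher in Colon26 or NM11. Of the partners, 2 were lower for LuM1 over Colon26, 3 higher and 1 lower for LuM1 over NM11 and 1 lower for NM11 over Colon26. Shares over all genes were not computed at this threshold.

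Signal limits what can be said of dim members. *Cd53*, *Tspan2*, *Tspan15* and *Tspan32* are dim or stand well above background in 1 line alone, and 9 members gave no ratio. A single array per line leaves the spread between cultures unmeasured.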
